A study of Saccharomyces cerevisiae with 4 samples.

Results

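The genes described here encode the proteins of the small (40S) subunit of the cytosolic ribosome of budding yeast. They were taken by name, as every gene whose symbol in the platform annotation is RPS followed by a digit. The rule found 55 genes among the 5574 named on the array, spotted 66 times in all, and 54 of them were measured on all 4 arrays. They form 24 pairs of duplicated genes, an A and a B copy of each, and 7 genes with a single copy.

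The study set a null mutant, named lpz8 null in the labels, against wild type on arrays hybridised with 2 dyes, with 2 arrays for null cells grown in high copper and 2 for null cells grown in low copper. Total RNA of the null cells was labelled with Cy5 and that of wild-type cells with Cy3 on every array. From the title, lpz8 was taken to be HAA1, the gene of a transcription factor of the family of copper-sensing activators, so that all null samples lack it. The strain background and the copper concentrations are not stated in the labels, nor is the copper in which the wild-type cells were grown, nor whether arrays came from separate cultures or from more than 1 isolate of the mutant. Since the dyes were never swapped, the dye preference of a gene and the effect of the genotype cannot be told apart. Each value is the log2 of null over wild type after the array was centred on its own median, and a positive value is a higher level in null cells. The RNA came from whole cultures, so fewer cells of a kind and less RNA per cell cannot be told apart.

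In yeast the genes of small subunit proteins are among the most strongly transcribed in growing cells. Most are driven by the DNA-binding protein Rap1 with Fhl1, its coactivator Ifh1 and Sfp1, under control of the TOR kinases, which couple ribosome production to nutrients. Subunit proteins are used in equal numbers, and the proteins of a ribosome are generally made at matched rates. Many of the genes survive as paralogs of the ancient genome duplication. RPS16, RPS18 and RPS23 are among the pairs whose A and B copies encode the same protein, and spots of so similar genes may bind RNA of both copies, so the copies are not independent measurements.

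Several facts of the arrays touch these genes. HAA1 itself lay at -6.96 and -4.15 on high copper replicates 1 and 2 and at -7.35 on low copper replicate 2, with no value on low copper replicate 1. That last array lacked 17.9% of its values, against 4.79% to 5.82% on the other 3, and its ratios spread further, with an SD over all genes of 0.66 against 0.35 to 0.39. On high copper replicate 1, a run of 528 spots carried values that matched the spot 24 places further on (Spearman correlation 0.56 with the mean of the other arrays) and not the same spot (-0.02). The run and the spots after it hold 5 of the genes described here, among them RPS0A, RPS15, RPS23A and RPS26A, whose values are given as deposited and, where it matters, with the run moved back. Spot intensities were not used here, and how far each spot lay above background is unknown.

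As a group, the small subunit genes stood above 0 on every array. Their median log2 ratio was 0.13 and 0.19 on high copper replicates 1 and 2, and 0.51 and 0.23 on low copper replicates 1 and 2. The median of all 5137 genes tested lay between -0.01 and 0.00 on the same arrays. On high copper arrays 40 and 40 of the 54 genes were above 0, and on low copper arrays 51 and 51 were. The small subunit median exceeded the value of 70.6% and 78.1% of all genes on the high copper arrays and of 92.2% and 80.5% on the low copper arrays. Low copper replicate 1, the array with the widest spread of all genes, thus also held the highest median of these genes, and the part of that spread in the median was not tested.

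**Figure D1:**
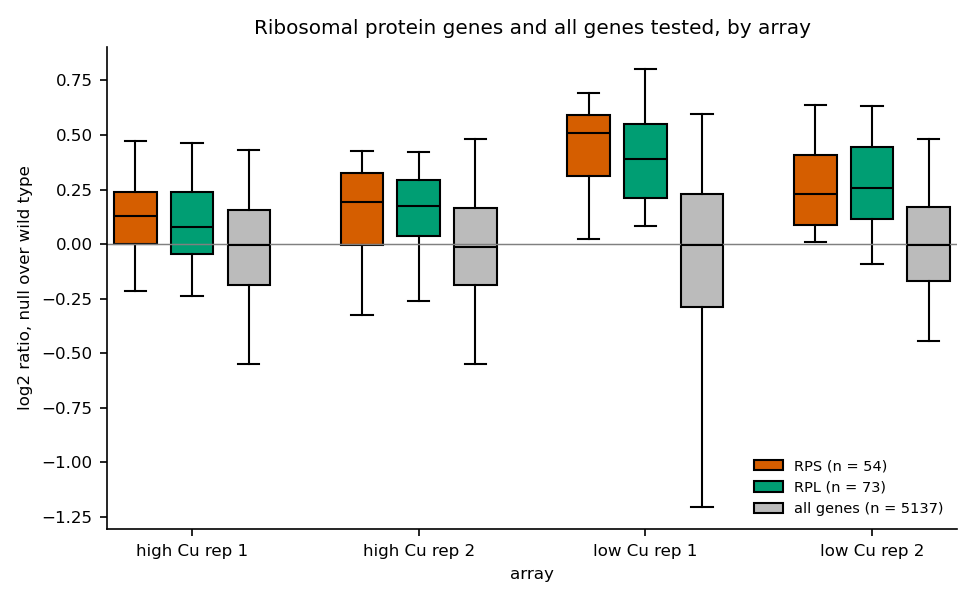
Log2 ratios (null over wild type, y axis) of small subunit genes (RPS), large subunit genes (RPL) and all genes tested on each array (x axis); boxes span the quartiles, lines inside are medians and whiskers reach the 5th and 95th percentiles. The RPS boxes sit above those of all genes on each of the 4 arrays, with medians of 0.13, 0.19, 0.51 and 0.23 from left to right.

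Genes were then tested one by one with a linear model in limma, with p-values adjusted by the Benjamini-Hochberg method over all 5137 genes and a threshold of 0.05. Over both copper conditions 13 of the 54 small subunit genes rose in null cells and 0 fell. That is 24.1% of them, against 6.44% of all genes tested that were called higher and 11.7% called in either direction. Another 19 had an unadjusted p under 0.05 without passing the adjusted threshold. That made 32 of 54 in all, a larger share than the 35.6% of all genes (1831 of 5137). On all 4 arrays 35 of the 54 genes were above 0, or 64.8%, against 20% of all genes, and 1, or 1.85%, was below 0 on all 4, against 21.6%. The median of the gene means was 0.25, against -0.02 for all genes.

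The large subunit genes moved by a like amount. Of 73 such genes 16 rose and 1 fell, and their median was 0.25. Their medians by array were 0.08 and 0.18 in high copper and 0.39 and 0.26 in low copper. No test was made of a difference between the subunits.

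The count of 13 depended on single arrays. It was 0 without either high copper array, as it was for all genes, 2 without low copper replicate 1, where 2.03% of all genes were called higher, and 33 without low copper replicate 2, where 14.9% were. It was also 0 with the arrays that the labels mark as repeats as a block. The p-values behind the count of 13 measure only the spread between the 2 arrays of each copper condition, with that of other genes taken in by limma. This spread may be technical. An SD over 4 arrays, as given below, also holds the difference between copper conditions and is not the spread behind these p-values.

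The 13 genes that rose were all members of duplicated pairs, as are 47 of the 54 genes tested. Each of the 13 was above 0 on all 4 arrays. RPS29A (YLR388W), which encodes a small zinc-binding protein of the subunit head, had the highest mean. Its log2 ratio was 0.51 and 0.41 on high copper replicates 1 and 2 and 0.62 and 0.78 on low copper replicates 1 and 2. The 2 high copper values lay below the 2 low copper values, and all 4 lay well above 0. Its mean was 0.58 ± 0.16 (SD, n = 4), a 1.49-fold higher level, with a limma adjusted p of 0.0232, the lowest of the group.

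RPS25A (YGR027C) encodes a head protein that is needed for initiation at some internal entry sites. It stood at 0.40 and 0.63 in high copper and at 0.65 and 0.55 in low copper. The conditions overlapped, and its mean was 0.56 ± 0.11 (SD, n = 4; limma adjusted p = 0.0267). RPS25B stood at 0.36 and 0.38 in high copper and at 0.52 and 0.31 in low copper, again with overlap, and rose by a smaller mean of 0.39 ± 0.09 (adjusted p = 0.0383).

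The pair RPS27A and RPS27B encodes a zinc-binding protein of the platform side. RPS27A stood at 0.47 and 0.36 in high copper and at 0.52 and 0.57 in low copper, a mean of 0.48 ± 0.09 (SD, n = 4; limma adjusted p = 0.0259). RPS27B stood at 0.29 and 0.52 in high copper and at 0.58 and 0.44 in low copper, a mean of 0.46 ± 0.12 (adjusted p = 0.0353). The copies kept within 0.18 of each other on every array.

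RPS21A and RPS21B, whose protein takes part in maturation of the 3′ end of the small subunit RNA, also both rose. RPS21A stood at 0.30 and 0.35 in high copper and at 0.77 and 0.57 in low copper, a mean of 0.50 ± 0.22 (SD, n = 4; limma adjusted p = 0.028). RPS21B stood at 0.23 and 0.43 in high copper and at 0.60 and 0.40 in low copper, a mean of 0.41 ± 0.15 (adjusted p = 0.041). RPS21A was higher in both low copper arrays than in either high copper array, and RPS21B was not.

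RPS29B, the other copy of the highest gene, stood at 0.16 and 0.26 in high copper and at 0.73 and 0.67 in low copper. The gap between the conditions exceeded the spread within each, and its mean over the 4 arrays was 0.46 ± 0.29 (SD, n = 4; limma adjusted p = 0.0265). With RPS21, RPS25 and RPS27 this made 4 pairs in which both copies passed.

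In 5 further pairs a single copy passed. RPS30A, whose protein is made as a fusion to a ubiquitin-like domain in animals but not in yeast, stood at 0.55 and 0.34 in high copper and at 0.56 and 0.53 in low copper, a mean of 0.50 ± 0.10 (SD, n = 4). RPS0B stood at 0.25 and 0.30 in high copper and at 0.43 and 0.52 in low copper, and RPS22B, of the subunit body, at 0.32 and 0.31 in high copper and at 0.58 and 0.35 in low copper. In both genes the high copper arrays lay below the low copper arrays. RPS14B, whose protein binds its own mRNA precursor, stood at 0.20 on both high copper arrays and at 0.41 and 0.61 in low copper. The means of RPS0B, RPS14B, RPS22B and RPS26B ran from 0.35 to 0.41. The limma adjusted p-values of these 5 genes lay between 0.0283 and 0.0441. Their partners were not all far behind. RPS14A at 0.42 ± 0.19 and RPS30B at 0.42 ± 0.19 had higher means than several genes that passed, yet their adjusted p-values were 0.0603 and 0.0588. That only a single copy passed is therefore no measure of a difference between copies, which is given further on.

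None of the 7 single-copy genes passed, and 4 of them had an unadjusted p under 0.05. RPS31, made as a fusion to ubiquitin, came nearest. It stood at 0.38 and 0.33 in high copper and at 0.66 and 0.28 in low copper, a mean of 0.41 ± 0.17 (SD, n = 4; limma adjusted p = 0.0533). With the displaced run moved back its limma adjusted p was 0.0469, although its own spot lies outside the run. The fit and the adjustment take in all genes, so its p can shift without a change at its own spot. RPS20 at 0.34 ± 0.24, RPS2 at 0.26 ± 0.14 and RPS3, a protein of the mRNA entry channel, at 0.11 ± 0.06 were above 0 on all 4 arrays, with adjusted p of 0.0948, 0.0916 and 0.241.

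**Figure D2:**
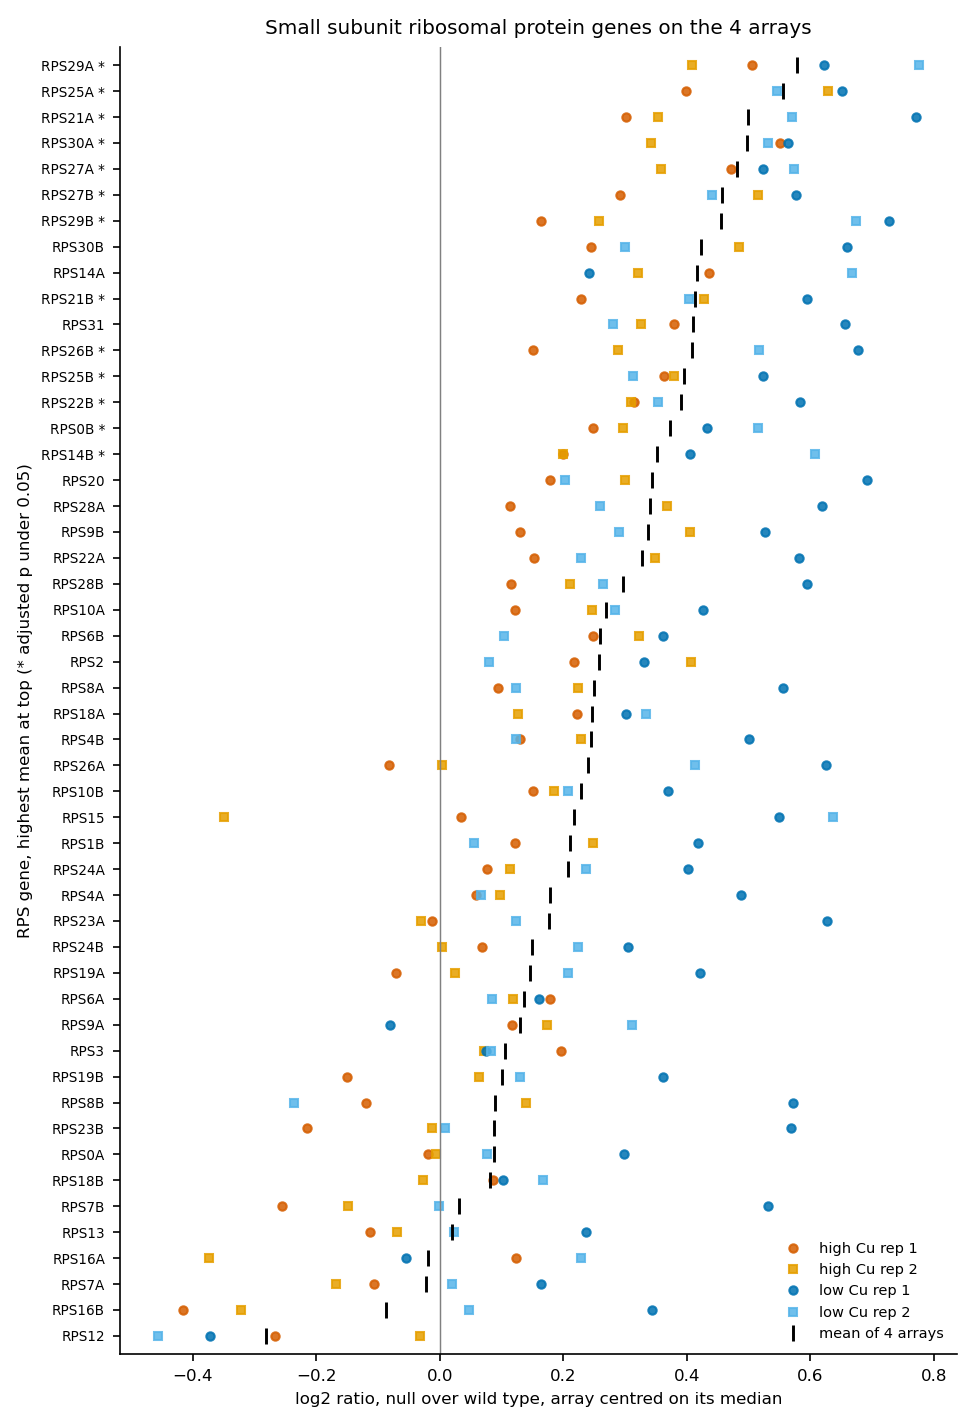
Log2 ratios (x axis, null over wild type) of 50 of the 54 small subunit genes (y axis, highest mean at the top) on the 4 arrays, with a bar at the mean; orange points are high copper and blue points low copper, and an asterisk marks an adjusted p under 0.05. The 13 marked genes lie among the highest means, from 0.35 to 0.58, and RPS12 at the bottom is below 0 on all 4 arrays.

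RPS12 (YOR369C) was the exception of the family. It encodes a protein of the subunit's beak that yeast cells can live without. It stood at -0.27 and -0.03 in high copper and at -0.37 and -0.46 in low copper, so it was below 0 on all 4 arrays and lowest in low copper, where 48 of the 54 genes had their higher mean. Its mean was -0.28 ± 0.18 (SD, n = 4), and it missed the limma threshold with an adjusted p of 0.0664. It was the lowest small subunit gene on both low copper arrays, and in low copper it was the single member whose mean was below 0.

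Other genes with a mean below 0 over the 4 arrays included RPS16B at -0.09 ± 0.35, RPS7A at -0.02 ± 0.15 and RPS16A at -0.02 ± 0.26 (SD, n = 4 each). Their limma adjusted p-values ran from 0.435 to 0.909. RPS7 is a body protein of early assembly, and RPS16 is a head protein. All 3 genes had means above 0 in low copper.

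Arranged by place on the subunit, genes of the platform and the mRNA exit side had the highest middle value. The 13 measured genes of RPS0, RPS1, RPS14, RPS21, RPS26, RPS27 and RPS28 had a median of 0.37 over the 4 arrays, and 7 of them rose. The 8 genes of the entry side and decoding centre (RPS2, RPS3, RPS9, RPS23 and RPS30) had a median of 0.22 with 1 called. The 18 genes of the head and beak had a median of 0.22 with 4 called, and the 15 of the body and foot had a median of 0.18 with 1 called. Of all 54 genes 24.1% rose, against 6.44% of all genes tested. These groups were drawn up with earlier results of these data known, and the copies of a pair count separately in them. The groups were not tested against each other. Their ranges overlapped, from 0.09 to 0.50 on the exit side and from -0.28 to 0.58 in the head.

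Taken within a copper condition, no small subunit gene passed the limma threshold. In high copper 0 of 54 passed, where 2.57% of all genes were called, 1.07% higher and 1.5% lower. The lowest limma adjusted p was 0.0795. An unadjusted p under 0.05 was found for 17 of 54 genes, a larger share than the 24.6% of all genes (1263 of 5137). In low copper 0 of 54 passed as well, where 0.662% of all genes were called, with a lowest limma adjusted p of 0.0618. There 31 of 54 genes had an unadjusted p under 0.05, a larger share than the 30.5% of all genes (1569 of 5137). Leaving out low copper replicate 2 gave 10 genes in high copper, 9 higher and 1 lower, or 18.5%, close to the 16.2% of all genes called there. In low copper it gave 30, or 55.6%, against 26.7% of all genes. With the arrays of the condition alone 11 passed in high copper, 10 higher and 1 lower, or 20.4%, close to the 17.5% of all genes, and 0 in low copper, where 0 of all genes passed.

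In high copper the highest means were those of RPS25A (0.51 ± 0.16, SD, n = 2), RPS29A (0.46 ± 0.07), RPS30A (0.45 ± 0.15), RPS27A (0.42 ± 0.08) and RPS27B (0.40 ± 0.16). Among the lowest in high copper, as deposited, were RPS16B (-0.37 ± 0.07), RPS7B (-0.20 ± 0.07), RPS15 (-0.16 ± 0.27) and RPS12 (-0.15 ± 0.17). RPS15 lies in the displaced run. With the run moved back its high copper mean was -0.46, the lowest of the family and below that of RPS16B (-0.37). In low copper RPS29B (0.70 ± 0.04), RPS29A (0.70 ± 0.11), RPS21A (0.67 ± 0.14) and RPS25A (0.60 ± 0.07) were among the highest, and RPS12 (-0.41 ± 0.06), RPS3 (0.08 ± 0.01), RPS16A (0.09 ± 0.20) and RPS7A (0.09 ± 0.10) among the lowest. RPS29A and RPS25A were thus among the highest in both, and RPS12 was among the lowest in both.

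The ratio of null over wild type was lower in high than in low copper for 48 of the 54 genes by mean. The median of high minus low copper was -0.18, against 0.01 for all genes. On 29 of the 54 genes, or 53.7%, both high copper arrays lay below both low copper arrays, where 27% of all genes tested did so. The reverse order was seen for 1 gene, RPS12, or 1.85%, against 25.2% of all genes. Low copper above 0 and high copper below 0, on both arrays of each, was seen for 8 genes, or 14.8%, against 7.88% of all genes. Several of these signs rest on values near 0. Large subunit genes gave 38 of 73 and 4 of 73 for the same orders.

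In the limma test of the difference itself 0 of the 54 genes passed, and 0 of the 5137 did. At an unadjusted p under 0.05 there were 7 small subunit genes, or 13%, below the 15.4% of all genes. The number of genes with a lower mean in high copper was 39 without low copper replicate 1, where the median difference was -0.11, and 40 with the arrays not centred. Without centring the median difference of the small subunit genes was -0.07 and that of all genes 0.12. Without low copper replicate 2, 5 small subunit genes passed, all lower in high copper, or 9.26%, while 13.6% of all genes passed, 4.68% lower. The copper growth of the wild-type RNA is not stated, so a lower ratio cannot be assigned to the null or to the wild-type channel.

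RPS15 (YOL040C), a head protein needed for export of the subunit precursor from the nucleus, stood at 0.03 and -0.35 on high copper replicates 1 and 2 and at 0.55 and 0.64 on low copper replicates 1 and 2. Both high copper values were below both low copper values, and the difference was -0.75 (limma adjusted p = 0.257). RPS15 lies in the displaced run, and with the run moved back its value on high copper replicate 1 was -0.57 and the difference -1.05 (adjusted p = 0.19).

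RPS16B (YDL083C) stood at -0.42 and -0.32 in high copper and at 0.34 and 0.05 in low copper, a difference of -0.57 (limma adjusted p = 0.262). RPS16A (YMR143W) stood at 0.12 and -0.37 in high copper and at -0.06 and 0.23 in low copper, and its conditions overlapped. RPS16 protein lies in the head, where its tail reaches the decoding site. The B copy thus separated the conditions and the A copy did not, which is no measure of a difference between copies. RPS16A minus RPS16B was 0.54 and -0.05 in high copper and -0.40 and 0.18 in low copper. Its mean was 0.07 ± 0.40 (SD, n = 4), without 1 sign on the 4 arrays.

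Others with an unadjusted p under 0.05 included RPS29B, RPS26A, RPS26B and RPS21A, with differences of -0.49, -0.56, -0.38 and -0.34. RPS26, a zinc-binding protein of the mRNA exit channel, is the pair of which both copies are in this set. RPS26A stood at -0.08 and 0.00 in high copper and at 0.63 and 0.41 in low copper, and RPS26B at 0.15 and 0.29 in high copper and at 0.68 and 0.52 in low copper. Both copies were lower on each high copper array than on each low copper array, and RPS26A, which lies in the displaced run, gave a difference of -0.53 with the run moved back.

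At the other end, the 6 genes whose mean was higher in high copper were RPS12 (0.27), RPS2 (0.11), RPS3 (0.06), RPS6B (0.05), RPS9A (0.03) and RPS6A (0.03), with limma adjusted p from 0.408 to 0.935. Of these 3 are single-copy genes. RPS6 is the small subunit protein phosphorylated downstream of TOR, and both copies overlapped between conditions. RPS6A stood at 0.18 and 0.12 in high copper and at 0.16 and 0.08 in low copper, and RPS6B at 0.25 and 0.32 in high copper and at 0.36 and 0.10 in low copper.

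The remaining genes were lower in high copper by smaller means or with wider spread. RPS7B stood at -0.26 and -0.15 in high copper and at 0.53 and 0.00 in low copper, so its low copper arrays lay far apart. RPS23 lies at the decoding centre, and RPS23A stood at -0.01 and -0.03 in high copper and at 0.63 and 0.12 in low copper while RPS23B stood at -0.21 and -0.01 in high copper and at 0.57 and 0.01 in low copper. Both copies were highest on low copper replicate 1. RPS8B, of the body, stood at -0.12 and 0.14 in high copper and at 0.57 and -0.24 in low copper, so the 2 low copper arrays disagreed in sign. RPS19, a head protein of late maturation, was lower on each high copper array than on each low copper array in both copies, with differences of -0.34 for RPS19A and -0.29 for RPS19B. RPS24A and RPS24B, of the foot, behaved alike in order, with differences of -0.22 and -0.23. None of these passed the limma test, with adjusted p from 0.34 to 0.797.

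**Figure D3:**
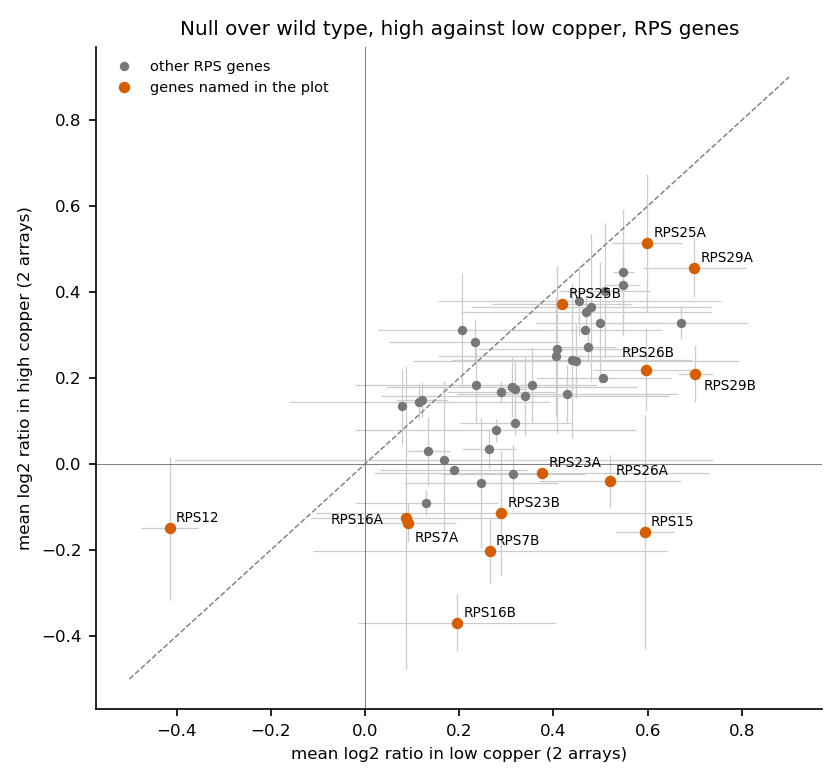
Mean log2 ratio in high copper (y axis, 2 arrays) against low copper (x axis, 2 arrays) for 50 of the 54 small subunit genes, as deposited; bars are SD and the dashed line marks equal values. All but 6 genes lie below the dashed line, with RPS15 and RPS16B farthest below it and RPS12 alone to the left of 0.

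A and B copies could be compared in 23 pairs. For RPS1 the A copy had a value on high copper replicate 1 alone (0.58), where RPS1B stood at 0.12, and it entered no test. The A copy had the higher mean in 15 pairs and the B copy in 8. Over the 4 arrays the median size of the mean difference was 0.09, and 13 pairs lay within 0.1. Across the 23 pairs the Pearson correlation of A with B was 0.31 and 0.78 on high copper replicates 1 and 2 and 0.56 and 0.72 on low copper replicates 1 and 2, and 0.63 for high minus low copper. These correlations describe pairs that may share RNA at their spots, and on high copper replicate 1 the displaced spots enter them.

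The difference between copies had 1 sign on all 4 arrays in 8 pairs. A was the higher copy in 4 of them, RPS18, RPS24 and RPS25 included, and B in RPS0, RPS4, RPS6 and RPS26. With 4 arrays the exact sign-flip permutation test (two-sided) cannot give a p below 0.125, which is what these 8 pairs gave, so none can pass 0.05. A count of the same 1-sign pairs among large subunit genes was 13 of 31. Between 2 spots of the same gene, 2 of 10 small subunit genes kept 1 sign on all 4 arrays, RPS14A and RPS6B.

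The pair farthest apart was RPS0, whose proteins stabilise the mature 3′ end of the subunit RNA. RPS0A minus RPS0B was -0.27 and -0.30 on high copper replicates 1 and 2 and -0.13 and -0.44 on low copper replicates 1 and 2, a mean of -0.29 ± 0.13 (SD, n = 4). The B copy was higher on every array, but RPS0A lies in the displaced run. With the run moved back RPS0A stood at 0.16 on high copper replicate 1, against 0.25 for RPS0B there.

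RPS9A minus RPS9B, whose protein affects accuracy of decoding, was -0.21 ± 0.29 (SD, n = 4), with -0.01 and -0.23 in high copper and -0.61 and 0.02 in low copper. The pair did not keep 1 sign.

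Further pairs were steadier. RPS18A minus RPS18B was 0.14 and 0.15 in high copper and 0.20 and 0.17 in low copper, a mean of 0.16 ± 0.03 (SD, n = 4), the smallest SD of the 23 pairs. RPS26A minus RPS26B was -0.23 and -0.28 in high copper and -0.05 and -0.10 in low copper, a mean of -0.17 ± 0.11. RPS18 is a head protein that contacts the large subunit, and its copies encode the same protein, yet their spots differed by nearly the same amount on all 4 arrays.

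The pairs nearest each other were RPS27 (0.03 ± 0.16), RPS10 (0.04 ± 0.05) and RPS28 (0.04 ± 0.08; SD, n = 4 each). RPS28B is known for regulation of its own mRNA through the decapping machinery, and RPS10 contacts mRNA at the entry side of the head. RPS28A stood at 0.11 and 0.37 in high copper and at 0.62 and 0.26 in low copper, and RPS28B at 0.12 and 0.21 in high copper and at 0.60 and 0.26 in low copper. The copies followed each other on 3 arrays and differed by 0.16 on high copper replicate 2.

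A yardstick for these differences is given by genes spotted in duplicate. Of the 11 small subunit genes with 2 spots, 10 had both spots measured on all 4 arrays. The median size of the difference between 2 spots of a gene on an array was 0.07, against 0.13 between A and B copies. Among genes outside the displaced run, the spot means differed by over 0.1 in RPS14A alone, at 0.16. The mean differences of the pairs RPS18 and RPS25, 0.16 in each, thus equalled that between the spots of RPS14A when rounded. RPS19B had a second spot with 0.80 and -1.70 in high copper, no value on low copper replicate 1 and -0.16 on low copper replicate 2, which was left out of its mean. The spot used read -0.15 and 0.06 in high copper and 0.36 and 0.13 in low copper.

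**Figure D4:**
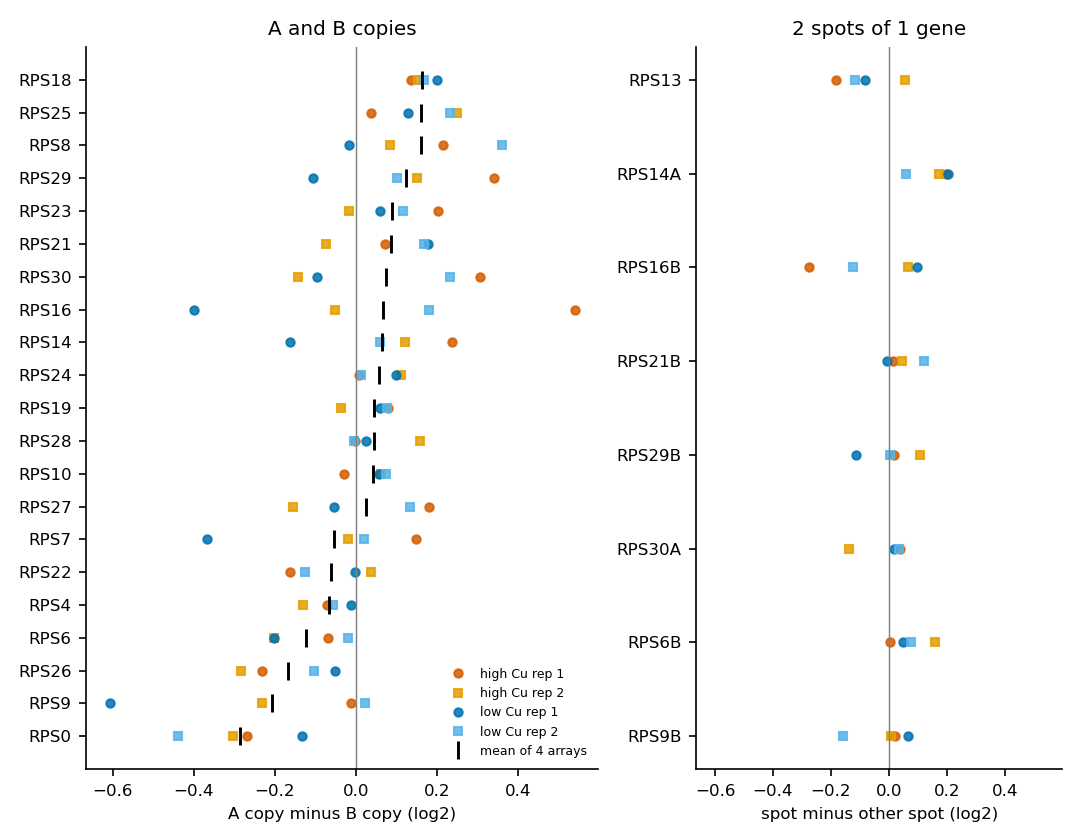
Left, the A copy minus the B copy (x axis, log2) of 21 of the 23 pairs (y axis) on the 4 arrays, with a bar at the mean; right, the difference between 2 spots of the same gene for 8 of the 10 genes. RPS18, RPS24 and RPS25 lie to the right of 0 on all 4 arrays and RPS0, RPS4, RPS6 and RPS26 to the left. In the right panel the spots of RPS14A and of RPS6B lie to the right of 0 on all 4 arrays.

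Both RPS16 copies neighbour a copy of RPL13 in the genome, by the order of genes in the RefSeq table of assembly R64, and the neighbours did not share a pattern. RPS16B stood at -0.42 and -0.32 in high copper, where RPL13A stood at 0.50 and 0.46, and at 0.34 and 0.05 in low copper, where RPL13A stood at 0.17 and 0.45. RPS16A stood at 0.12 and -0.37 in high copper, where RPL13B stood at 0.50 and 0.34, and at -0.06 and 0.23 in low copper, where RPL13B stood at 0.09 and 0.50. The large subunit gene was the higher of the neighbours throughout, except on low copper replicate 1 for RPS16B. RPS14B and RPS22A, which also lie side by side, stood at 0.20 and 0.20 and at 0.15 and 0.35 in high copper, and at 0.41 and 0.61 and at 0.58 and 0.23 in low copper. Neighbours were chosen for description after the values were known, and no test was made.

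Lists of genes that act on the small subunit were set beside its proteins, without a test between lists. The calls in these lists come from the same fit as those of the small subunit genes, so they too depend on single arrays. They were not counted under the other settings. Of 31 measured assembly factors 6 fell and 0 rose over both conditions, RIO1 (-0.44 ± 0.10, SD, n = 4), BUD22 (-0.40 ± 0.12), BMS1 (-0.52 ± 0.17), UTP14 (-0.35 ± 0.10), BUD23 (-0.48 ± 0.15) and SYO1 (-0.55 ± 0.21), with limma adjusted p from 0.0289 to 0.0443. RIO1 is a kinase of late maturation, BMS1 a GTPase of early assembly, BUD23 a methyltransferase of the subunit RNA, and SYO1 carries large subunit proteins into the nucleus although it was listed here. The list median was -0.19, and by array it was -0.21 and -0.25 in high copper and -0.19 and -0.14 in low copper. It was thus below 0 on all 4 arrays, where the small subunit proteins were above 0. The 6 genes are 19.4% of the list, against 5.24% of all genes called lower.

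Of 20 measured regulators of ribosomal protein genes, LST8, a subunit of the TOR complexes, rose, at 1.29 and 1.43 in high copper and at 0.45 and 0.12 in low copper (mean 0.82 ± 0.64, SD, n = 4; limma adjusted p = 0.0223), and MSN4, a stress activator, fell (-0.35 ± 0.27, adjusted p = 0.0497). These 2 genes are 10% of the list, near the 11.7% of all genes called in either direction. The coactivator IFH1 had a mean of -1.38 ± 1.05, between -0.67 on high copper replicate 2 and -2.95 on low copper replicate 1, and missed the threshold (adjusted p = 0.0716). HMO1, which binds many of these promoters, stood at 0.15 and 0.13 in high copper and at 0.35 and 0.42 in low copper (adjusted p = 0.0531). FHL1 stood at -0.20 and 0.00 in high copper and at -1.80 and -0.50 in low copper (adjusted p = 0.143), and RAP1 and SFP1 at means of -0.20 and -0.19. For IFH1 and FHL1 the lowest value was on low copper replicate 1, the array with the widest spread.

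Of 22 initiation factors CDC33, the cap-binding protein eIF4E, rose (0.34 ± 0.13, SD, n = 4; limma adjusted p = 0.0483), 4.55% of the list against 6.44% of all genes called higher, and the list median was 0.04. Of 8 measured proteins that bind the finished subunit 0 passed in limma, with 1 at an unadjusted p under 0.05. ASC1, the scaffold protein on the subunit head, stood at 0.31 and 0.09 in high copper and at 0.32 and 0.02 in low copper (adjusted p = 0.191).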

How the data were processed

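The values are log ratios as the authors deposited them, for 8832 spots on each array, and their normalization is not given in the sources used here. They were taken as log2, since on high copper replicate 2 the deposited values of 2.9 to 6 in size fell on logs of whole numbers: 27 of 56 were within 0.0006 of such a log2, where density gives 0.649, and 1 for natural logs. On the other 3 arrays neither base stood out, so the base stays an assumption there. The direction, Cy5 over Cy3, was taken from the dyes in the labels.

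For each array the median over spots with a value on every array was subtracted. A gene's value is the mean of those spots, which left 5137 genes. Their copper condition means were tested by limma (version 3.58.1, R version 4.3.3) through lmFit and eBayes, with 2 residual and 2.22 prior degrees of freedom. A and B copies were compared within arrays by an exact sign-flip test. The fits were tested on simulated data. All 55 members matched the RefSeq table. The members and lists, and the groups by place on the subunit, were chosen with earlier results of these data known. Described in full were genes past the threshold, the 5 highest and lowest means of each condition, the 6 farthest and 3 nearest pairs and genes in the displaced run. Alternatives covered centring, scaling, missing values, the copper term, a block, the displaced run and each array left out. No sequences or coordinates are given, since no table of them was used here. Some members enter every count and fit but are not reported by name or drawn singly here.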

Additional observations from a re-analysis of the deposited data

Results flagged for a closer look

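For 8 small subunit genes both low copper arrays lay above 0 and both high copper arrays below it, 14.8% of the 54, against 7.88% of all genes tested. Among them, high minus low copper was -0.57 for RPS16B, -0.40 for RPS23B, -0.40 for RPS23A, -0.23 for RPS7A, -0.22 for RPS13 and -0.20 for RPS0A. The difference itself passed the limma threshold for none of these, with adjusted p from 0.262 to 0.482. Several of the signs rest on values near 0. On low copper replicate 2 RPS23B stood at 0.01 and RPS7A at 0.02. In high copper RPS0A stood at -0.02 and -0.01 and RPS23A at -0.01 and -0.03. On low copper replicate 2 the 2 spots of RPS16B (-0.015 and 0.109) differed in sign, as did those of RPS13 (-0.035 and 0.081). Without centring 3 of the 8 had opposite signs, RPS16B and RPS23A included. With the displaced run moved back 6 of the 8 did, RPS0A and RPS23A no longer did, and RPS15 was among those that joined them. Groups of 2 arrays are too small to look for outlying samples.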

How the results depend on the processing

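The count of 13 genes over both conditions was 6 without a copper term and 0 with the arrays marked as repeats as a block, and it ran from 0 to 33 with an array left out. The calls of 7 of the 13 genes were lost without a copper term, of all 13 with the block or without either high copper array, and of 12 without low copper replicate 1. Over all genes the count was 600, against 292 without a copper term, 36 with the block and 0 to 1900 with an array left out. The block rests on the labels' repeat mark alone: deviations of the marked arrays correlated at 0.09 over all genes and 0.44 over the small subunit genes. The count in high copper was 1 with arrays scaled to equal spread, 11 from the 2 arrays of the condition alone, and 0 to 10 with an array left out. In low copper it was 1, RPS29B, with the displaced run moved back, and 0 to 30 with an array left out. The count for high minus low copper was 0 to 5 with an array left out. The pairs with 1 sign numbered 9 to 13 with an array left out, where 3 arrays had to share a sign. With an array left out, the lone array of its condition is assumed to vary like the complete pair. The cause of these shifts was not tested. In high copper with arrays scaled to equal spread, 1.85% of the small subunit genes were called, below the 7.07% of all genes. From the 2 arrays of that condition alone it was 20.4%, close to the 17.5% of all genes. In low copper with the displaced run moved back, the call of RPS29B made 1.85%, near the 1.22% of all genes. The medians in high and low copper stayed within the spread between arrays under each setting run for them. Of the 13 calls 0 changed sign. Neither is a check when an array is left out. Leaving out 1 of 2 arrays can hardly move a median by more than their spread. Each of the 13 genes was above 0 on all 4 arrays, so its sign could not change. The median in low copper, 0.35, was 0.25 without its replicate 1 and 0.51 without its replicate 2. That in high copper, 0.17, was 0.19 and 0.13 without replicates 1 and 2. The number of arrays limits the precision.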
